A study of Mus musculus with 15 samples.

Results

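Mature thymocytes that carried Thpok-RKF and bore both the CD4 and the CD8 coreceptor were compared, across every expressed gene, with wild-type (WT) CD8 single-positive (SP) thymocytes, the normal cytotoxic-lineage cells of the same study. The 6 libraries, 3 of each population, were chosen by their labels from 15 libraries in the series. Thpok, encoded by Zbtb7b, is the transcription factor that directs developing T cells to the helper (CD4) lineage. Runx3 directs them to the cytotoxic (CD8) lineage, where it silences Cd4 and Zbtb7b. Cytotoxic-lineage cells normally recognise peptides on MHC class I, and helper-lineage cells recognise peptides on MHC class II.

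The Thpok-RKF+ cells were CD45.2+ donor cells of the genotype Thpok fl/fl Runx3 fl/dYFP Cd4-Cre+ Thpok-RKF+, and they developed in B2m-/- hosts, which lack MHC class I. Thpok-RKF- CD4+CD8+ cells had the same genotype and host type without Thpok-RKF. WT CD4 SP cells were CD45.1+CD45.2+ competitor cells from B2m-/- hosts. WT CD8 SP cells were CD45.1+CD45.2+ competitor cells from I-Ab-/- hosts, which lack MHC class II. All were taken from mixed bone marrow chimeras on the C57BL/6 strain, and every gate was CD44lo TCRbhi CD24lo CD69lo. Cd4-Cre acts during thymocyte development, so cells with the floxed alleles had them until that stage. The labels do not explain the name Thpok-RKF, and do not say whether its transcripts are counted as Zbtb7b. Genotype, coreceptor gate, donor marker and host all differ between Thpok-RKF+ CD4+CD8+ and WT CD8 SP cells, so their parts in any difference below cannot be told apart. Nothing in the labels ties each replicate to an animal of its own. The p-values therefore measure the spread between these libraries, which may be technical.

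Gene totals lay between 37311823 and 48607260 counts, and 16550 of 53762 genes passed the filter on low counts and were tested. Thpok-RKF+ library 1 stood apart from its group. Lines that name no gene held 21%, 16% and 15.9% of the counts in the 3 Thpok-RKF+ libraries, against 18.4%, 16.4% and 16% in the WT CD8 SP libraries. In each of the 5 groups of the series, the library numbered 1 had the highest such share. The count of each gene list was also made without the libraries numbered 1.

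The genes that define the populations were examined first. Zbtb7b had 812, 768 and 823 CPM (read counts scaled by library size) in Thpok-RKF+ libraries, against WT CD8 SP libraries with 0.239, 0.376 and 0.0933 CPM. The groups were far apart, with a log2 fold change of 11.73 ± 0.51 (SE; edgeR quasi-likelihood test, Benjamini-Hochberg adjusted p = 4.72e-09). The same gene had 2.77, 2.95 and 1.67 CPM in Thpok-RKF- CD4+CD8+ libraries and 64.0, 79.2 and 27.4 CPM in WT CD4 SP libraries, so Thpok-RKF+ cells also stood above normal helper cells (log2 fold change 3.82, edgeR adjusted p = 2.94e-06). Counts over the whole gene do not check the deletion of the floxed part.

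Runx3 had 361, 268 and 286 CPM in Thpok-RKF+ libraries, against 220, 202 and 194 CPM in WT CD8 SP libraries, with no overlap. It was higher by 0.57 ± 0.14 on the log2 scale (edgeR adjusted p = 0.0192), and this call was lost without WT CD8 SP library 2 (adjusted p = 0.0608) or 3 (adjusted p = 0.0695). WT CD4 SP libraries held 30.8, 32.4 and 23.1 CPM. Runx3 was likewise counted over its full length, which cannot tell intact from altered transcripts.

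Cd4 and the CD8 coreceptor genes follow the sort gate and are given as checks of the labels. Cd4 had 1123, 1036 and 1147 CPM in Thpok-RKF+ libraries, against 3.86, 0.803 and 0.979 CPM in WT CD8 SP libraries (log2 fold change 9.21 ± 0.59, and 10.29 without WT CD8 SP library 1). Cd8a had 935, 1254 and 1128 CPM in Thpok-RKF+ libraries, against 1181, 1642 and 1607 CPM in WT CD8 SP libraries. These ranges overlapped and the difference did not pass (log2 fold change -0.42 ± 0.31, 95% interval -1.07 to 0.24). Cd8b1, the beta chain of the same coreceptor, had 845, 1100 and 967 CPM in Thpok-RKF+ libraries, against 1704, 2232 and 2177 CPM in WT CD8 SP libraries, and was lower by a log2 fold change of -1.07 ± 0.19 (edgeR adjusted p = 0.00151). The ranges of Cd8b1 were apart.

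Nkg7 and Itgae mark cytotoxic-lineage thymocytes. Nkg7, a protein of cytotoxic granules, had 121, 190 and 161 CPM in Thpok-RKF+ libraries, against 1065, 1327 and 1295 CPM in WT CD8 SP libraries (log2 fold change -2.96 ± 0.34, edgeR adjusted p = 5.37e-05). Itgae, the alpha chain of the CD103 integrin that binds E-cadherin, had 174, 145 and 119 CPM in Thpok-RKF+ libraries, against 888, 867 and 850 CPM in WT CD8 SP libraries (log2 fold change -2.57 ± 0.17, edgeR adjusted p = 1.63e-07). Neither range overlapped. Both genes were nonetheless well above WT CD4 SP cells, where Nkg7 had 1.26, 2.09 and 5.46 CPM and Itgae had 6.24, 10.3 and 8.76 CPM. Thpok-RKF+ exceeded WT CD4 SP by 5.75 for Nkg7 and 4.11 for Itgae on the log2 scale (edgeR adjusted p = 2.94e-07 and 1.88e-09). Thpok-RKF+ and Thpok-RKF- CD4+CD8+ cells did not differ by the test in Nkg7 (log2 fold change -0.12 ± 0.32) or Itgae (0.46 ± 0.16). Both Cd4 and Cd8 transcripts were thus present, as the CD4+CD8+ label says, and Nkg7 and Itgae lay between the WT populations.

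**Figure D1:**
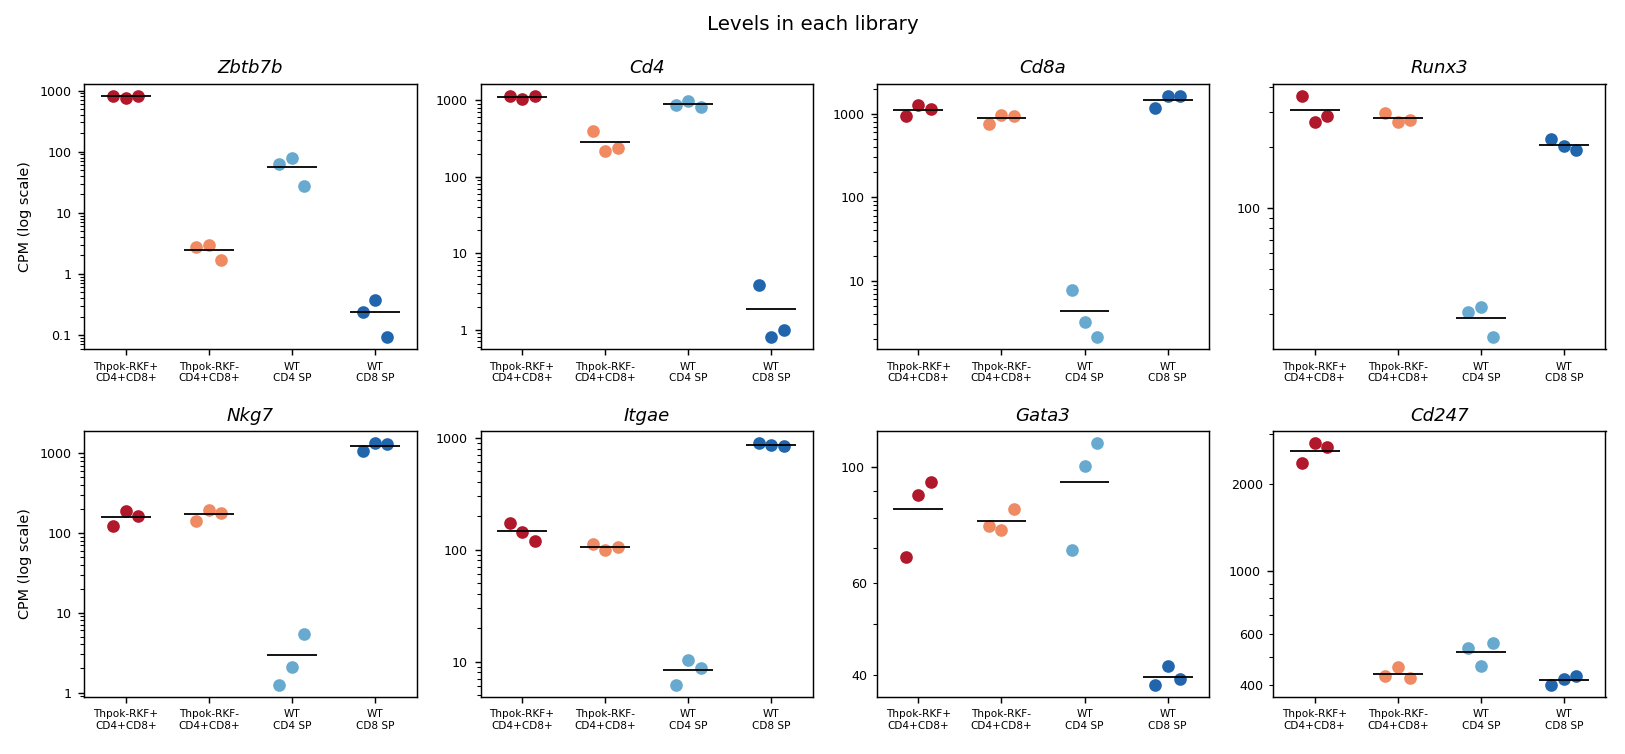
CPM on a log axis for 8 genes in each of 3 libraries per group, from left to right Thpok-RKF+ and Thpok-RKF- CD4+CD8+, WT CD4 SP and WT CD8 SP; black lines are group means. Nkg7 and Itgae sit between WT CD4 SP and WT CD8 SP in the Thpok-RKF+ libraries, and Cd247 is high in the Thpok-RKF+ libraries alone among these groups.

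Over all genes tested, Thpok-RKF+ and WT CD8 SP cells differed in 1835, which is 11.1% of those tested. Of these, 823 were higher in Thpok-RKF+ cells (4.97%) and 1012 were lower (6.11%). The fold change was at least 2-fold for 974 of the genes that passed, at least 8-fold for 216 and at least 32-fold for 110. The median absolute log2 fold change over all genes tested was 0.345. For 7747 genes, 46.8% of those tested, the 95% interval of the fold change lay wholly within 2-fold in either direction. The interval lay wholly beyond 2-fold for 287 genes that were higher (1.73%) and 338 that were lower (2.04%). The libraries of both groups did not overlap for 27.1% of the genes tested. Leaving out 1 library changed the number of genes called from 1835 to as few as 1093 (without WT CD8 SP library 2), 1107 (without WT CD8 SP library 3) or 1188 (without Thpok-RKF+ library 3).

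How much could be said of likeness depended on the expression level. Among genes with a mean log2(CPM + 1) over 7, 92.1% had an interval within 2-fold and 16.7% passed the test. In the class from 5 to 7 these shares were 87.6% and 13.5%, and in the class from 3 to 5 they were 64.3% and 17.8%. Below 1, only 0.258% of genes had an interval that narrow and 2.66% passed, so for most genes of low expression neither likeness nor a difference was detectable at this depth.

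**Figure D2:**
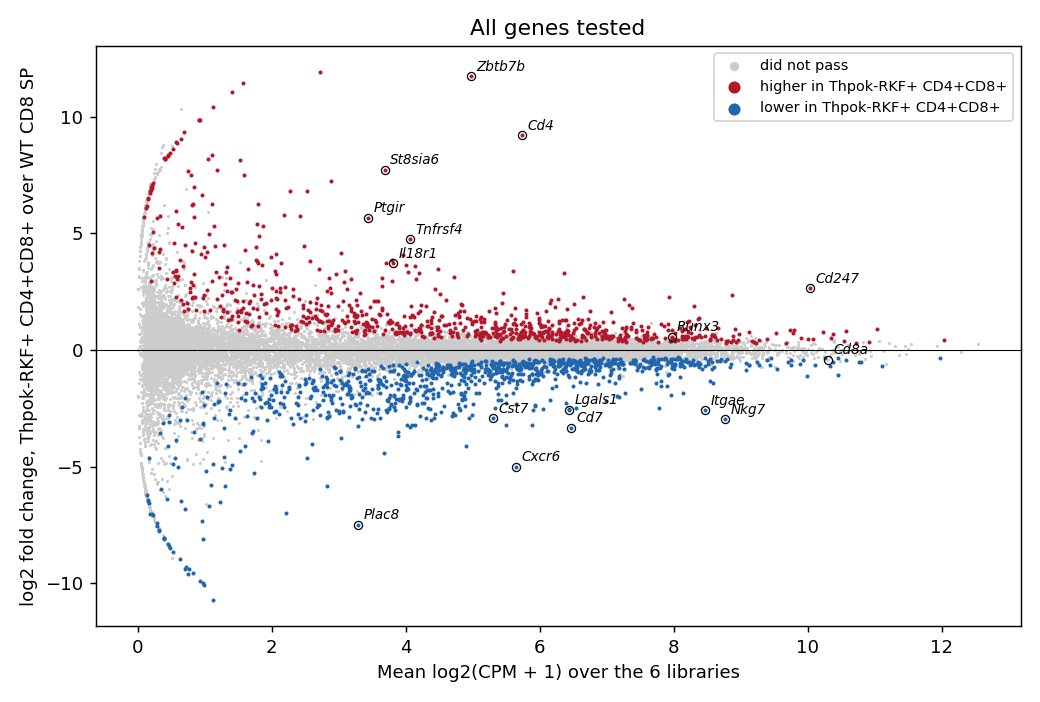
Log2 fold change of Thpok-RKF+ CD4+CD8+ over WT CD8 SP against the mean log2(CPM + 1) of the 6 libraries for the 16550 genes tested. Red points are the 823 genes that passed and were higher, blue points the 1012 that passed and were lower, grey points did not pass, and circled genes are named.

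The other comparisons that use these libraries give a scale for these counts. WT CD4 SP differed from WT CD8 SP in 2981 genes (18%, of which 7.72% of those tested were higher and 10.3% lower), with a median absolute log2 fold change of 0.433. Thpok-RKF+ cells differed from WT CD4 SP in 1202 genes (7.26%, median 0.33), with 4.36% of those tested higher and 2.91% lower. They differed from Thpok-RKF- CD4+CD8+ cells in 159 genes (0.961%, median 0.297), with 0.586% higher and 0.375% lower. These comparisons share libraries with the first, so their counts are set side by side and are not independent. The count against Thpok-RKF- cells rested on the library that stood apart, since it was 1677 without Thpok-RKF+ library 1, and counts below the 159 were also given by leaving out other libraries (from 50 to 92). Left-out libraries moved the count for the WT CD4 SP comparison with WT CD8 SP to as few as 1908, without WT CD8 SP library 2.

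The distance between 2 libraries was taken as the mean absolute difference in log2(CPM + 1) over the genes tested. Between Thpok-RKF+ and WT CD8 SP libraries it had a median of 0.428 over 9 pairs (range 0.398 to 0.497). Between Thpok-RKF+ and WT CD4 SP libraries the median was 0.407 (range 0.338 to 0.566), and between WT CD4 SP and WT CD8 SP libraries it was 0.491 (range 0.421 to 0.540). Thpok-RKF+ libraries were themselves 0.251 to 0.438 apart, and WT CD8 SP libraries 0.183 to 0.301 apart. The ranges of the distances to both WT populations overlapped, so by this measure Thpok-RKF+ cells as a group could not be placed nearer to either. The libraries differed in this. Library 2 was nearer to every WT CD4 SP library (0.3555 to 0.407) than to any WT CD8 SP library (0.426 to 0.472). Distances overlapped for library 3 (WT CD4 SP 0.338 to 0.428, WT CD8 SP 0.411 to 0.434) and library 1 (WT CD4 SP 0.454 to 0.566, WT CD8 SP 0.398 to 0.497). Without the libraries numbered 1, the 4 remaining pairs gave medians of 0.420 between Thpok-RKF+ and WT CD8 SP, 0.372 between Thpok-RKF+ and WT CD4 SP, and 0.457 between WT CD4 SP and WT CD8 SP. The distance within Thpok-RKF+ was then 0.251 and that within WT CD8 SP 0.183.

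**Figure D3:**
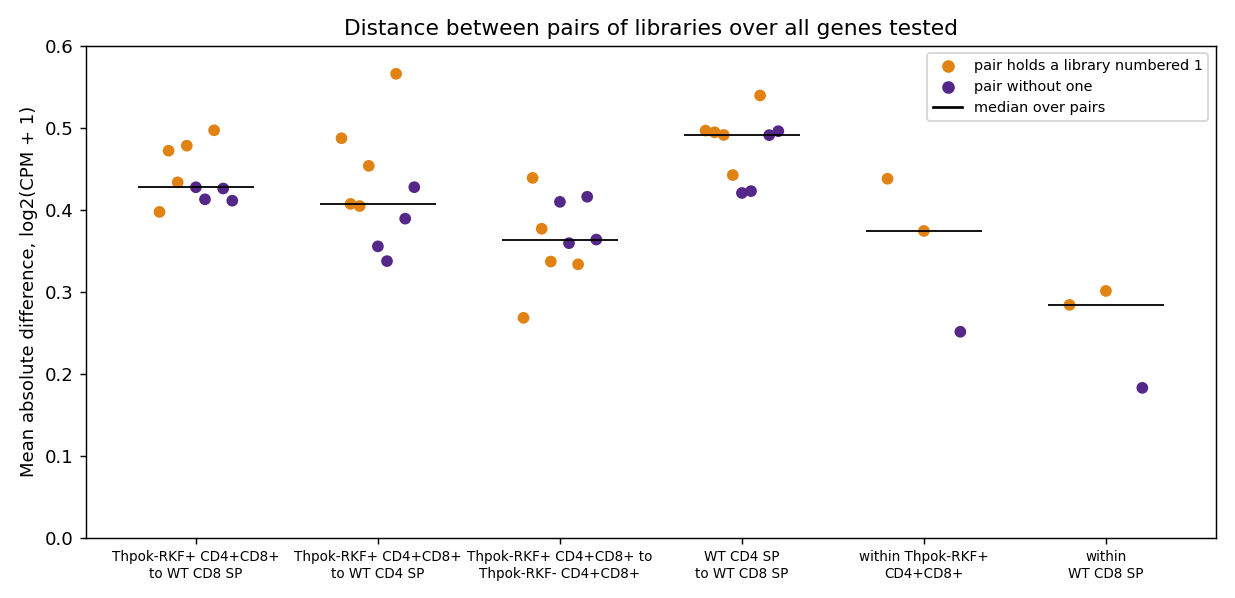
Mean absolute difference in log2(CPM + 1) over 16550 genes for each pair of libraries, grouped by the populations of the pair; orange points hold a library numbered 1 and lines are medians. The Thpok-RKF+ to WT CD8 SP pairs lie between 0.398 and 0.497 and the Thpok-RKF+ to WT CD4 SP pairs between 0.338 and 0.566.

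Of 33 lineage and thymocyte transcription factors tested, 13 rose and 6 fell in Thpok-RKF+ cells (4.97% and 6.11% of all genes tested), with a median log2 fold change of 0.36 over the list, against -0.01 over all genes tested. Gata3, which acts upstream of Zbtb7b in helper-lineage development, had 67.2, 88.4 and 93.5 CPM in Thpok-RKF+ libraries, against 38.3, 41.5 and 39.2 CPM in WT CD8 SP libraries (log2 fold change 1.06 ± 0.16, edgeR adjusted p = 0.000523). The ranges of Gata3 were apart, and WT CD4 SP libraries held 69.4, 100 and 111 CPM. Runx1, the family member that represses Cd4 in immature thymocytes, had 66.4, 43.4 and 49.7 CPM in Thpok-RKF+ libraries, against 24.7, 21.1 and 23.7 CPM in WT CD8 SP libraries (log2 fold change 1.20 ± 0.18, edgeR adjusted p = 0.000436).

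Satb1, a chromatin organiser needed for normal thymocyte lineage choice, had 1616, 1737 and 1739 CPM in Thpok-RKF+ libraries, against 940, 1091 and 1094 CPM in WT CD8 SP libraries (log2 fold change 0.70 ± 0.08, edgeR adjusted p = 3.24e-05). Runx1 and Satb1 did not overlap between the groups, and neither differed by the test between Thpok-RKF+ and WT CD4 SP cells (log2 fold changes -0.03 and -0.01). Among the factors that fell, Id3, an inhibitor of E proteins, had 51.5, 128 and 117 CPM in Thpok-RKF+ libraries, against 297, 682 and 690 CPM in WT CD8 SP libraries (log2 fold change -2.49 ± 0.43, edgeR adjusted p = 0.00137). Cbfb, the shared partner of the Runx proteins, had 99.5, 120 and 126 CPM in Thpok-RKF+ libraries, against 153, 183 and 206 CPM in WT CD8 SP libraries (log2 fold change -0.65 ± 0.14, edgeR adjusted p = 0.00744). In both groups library 1 was the lowest for Id3, and the groups did not overlap for either gene. The other factors that fell were Klf2, Eomes, Zfp683 and Nfatc1, and the call for Eomes was lost without any 1 of the 6 libraries.

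Of 20 genes typical of the CD8 lineage besides the granule genes, 4 rose, 6 fell and 10 did not pass, with a median of -0.26, where 4.97% of all genes tested rose and 6.11% fell. Between WT CD4 SP and WT CD8 SP, 14 of the same 20 were lower in WT CD4 SP, against 10.3% of all genes tested, and the median was -3.41. The list was chosen with earlier results of these data known, so these counts describe it and do not test it. The genes that fell in Thpok-RKF+ cells besides Cd8b1 and Itgae were Haao, Adgrg5, Themis and Atp2b4. Haao, an enzyme of tryptophan breakdown, had 9.03, 9.55 and 10.4 CPM in Thpok-RKF+ libraries, against 66.2, 60.2 and 70.4 CPM in WT CD8 SP libraries (log2 fold change -2.76 ± 0.29, edgeR adjusted p = 2.35e-05). Adgrg5, an adhesion G protein-coupled receptor, had 238, 232 and 234 CPM in Thpok-RKF+ libraries, against 638, 562 and 557 CPM in WT CD8 SP libraries (log2 fold change -1.32 ± 0.23, edgeR adjusted p = 0.00142). Both stood clear of WT CD8 SP, and both stayed above WT CD4 SP, which had at most 0.0686 CPM of Haao and 4.78 CPM of Adgrg5.

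Themis, which tunes T cell receptor signalling in developing thymocytes, had 172, 171 and 164 CPM in Thpok-RKF+ libraries, against 239, 250 and 259 CPM in WT CD8 SP libraries (log2 fold change -0.56 ± 0.10, edgeR adjusted p = 0.00173). Atp2b4, a calcium pump, had no count in any Thpok-RKF+ library, against 90 counts in all in the WT CD8 SP libraries, which is at least 33.8-fold lower (floor of 3 counts over the group). Its call was lost without any 1 library other than WT CD8 SP library 2, and without the libraries numbered 1. The 4 genes of the CD8 lineage list that rose were Runx3, Tox, Patj and Cacng4. Tox, a factor needed for CD4 lineage development, had 215, 268 and 263 CPM in Thpok-RKF+ libraries, against 107, 152 and 150 CPM in WT CD8 SP libraries (log2 fold change 0.86 ± 0.14, edgeR adjusted p = 0.000747). It is on the helper list as well. The ranges of Themis and Tox did not overlap between the groups.

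Ccr9 and Ly6c2 overlapped with WT CD8 SP and stood far above WT CD4 SP. Ccr9, a chemokine receptor for homing to thymus and gut, had 535, 294 and 313 CPM in Thpok-RKF+ libraries, against 358, 326 and 312 CPM in WT CD8 SP libraries and 24.1, 20.6 and 18.7 CPM in WT CD4 SP libraries. Thpok-RKF+ library 1 was the highest of the 6 compared, and the log2 fold change over WT CD8 SP was 0.20 (95% interval -0.21 to 0.60). Ly6c2, a surface protein of the Ly6 family, had 54.4, 50.9 and 42.7 CPM in Thpok-RKF+ libraries, against 48.2, 62.4 and 56.3 CPM in WT CD8 SP libraries (log2 fold change -0.17, 95% interval -0.63 to 0.28). WT CD4 SP libraries had at most 3.39 CPM of it. Il2rb, a receptor chain shared by interleukin 2 and interleukin 15, had 462, 420 and 406 CPM in Thpok-RKF+ libraries, against 610, 591 and 591 CPM in WT CD8 SP libraries (95% interval of the log2 fold change -0.85 to -0.10, edgeR adjusted p = 0.107). Its ranges were apart, it passed as lower when only the compared groups were fitted (adjusted p = 0.043), and WT CD4 SP libraries had 124, 179.6 and 105 CPM.

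Slc6a19, an amino acid transporter, had 147, 104 and 93.4 CPM in Thpok-RKF+ libraries, against 78.5, 69.0 and 68.8 CPM in WT CD8 SP libraries (log2 fold change 0.67, 95% interval 0.05 to 1.3, edgeR adjusted p = 0.173). Thpok-RKF+ cells were lower than Thpok-RKF- CD4+CD8+ cells in Slc6a19 (log2 fold change -1.61 ± 0.30, edgeR adjusted p = 0.0171), where it had 338, 355 and 362 CPM. Ly6c2 and Adgrg5 were higher in Thpok-RKF+ than in Thpok-RKF- CD4+CD8+ cells, by 1.54 ± 0.22 and 1.40 ± 0.23 on the log2 scale (edgeR adjusted p = 0.00305 and 0.00866). Cacng4 was lower by a log2 fold change of -1.77 ± 0.32 in that comparison (edgeR adjusted p = 0.0158) and higher by 1.48 ± 0.32 against WT CD8 SP (edgeR adjusted p = 0.00763, and 0.0555 with only the compared groups fitted).

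Promoter sequences of 3 cytotoxic granule genes that passed the test are shown, Nkg7 and Cst7 as lower and Prf1 as higher. Each promoter holds the core letters bound by RUNX proteins, which was part of the choice of these 3. The sequences are from RefSeq (build GRCm38.p6) and run from 250 bases before to 50 bases after the start of the gene, 5′ to 3′ on the strand of the gene. Capitals mark TGTGGT on either strand.
Nkg7, chr7:43436888-43437187, plus strand: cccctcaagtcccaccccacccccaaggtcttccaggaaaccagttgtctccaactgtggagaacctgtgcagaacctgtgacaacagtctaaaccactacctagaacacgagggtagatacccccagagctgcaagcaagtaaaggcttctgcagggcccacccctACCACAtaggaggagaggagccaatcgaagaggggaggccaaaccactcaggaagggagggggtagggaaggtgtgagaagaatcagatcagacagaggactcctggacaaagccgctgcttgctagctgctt
Cst7, chr2:150570165-150570464, plus strand: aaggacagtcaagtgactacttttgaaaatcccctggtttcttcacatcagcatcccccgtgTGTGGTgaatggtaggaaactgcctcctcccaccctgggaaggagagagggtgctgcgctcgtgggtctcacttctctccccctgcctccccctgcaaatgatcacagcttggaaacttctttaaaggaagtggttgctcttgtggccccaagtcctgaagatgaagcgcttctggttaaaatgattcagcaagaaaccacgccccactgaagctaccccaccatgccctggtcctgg
Prf1, chr10:61297586-61297885, plus strand: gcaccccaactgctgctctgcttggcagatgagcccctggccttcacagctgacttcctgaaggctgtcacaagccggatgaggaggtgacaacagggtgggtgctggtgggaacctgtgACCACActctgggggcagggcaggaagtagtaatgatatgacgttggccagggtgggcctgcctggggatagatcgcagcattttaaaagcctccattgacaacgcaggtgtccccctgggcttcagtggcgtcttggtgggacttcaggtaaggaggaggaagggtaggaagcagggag
The letters TGTGGT were in 11 of the 18 promoters listed for 15 of the granule genes (61.1%), against 16.8% of all 32851 promoters. Of the other granule genes that passed the test, Xcl1 had these letters, while Fasl, which rose, and Eomes, which fell, did not. A match describes letters in this window and is not evidence of binding.

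Of 18 cytotoxic granule and effector genes tested, 2 rose, 4 fell and 12 did not pass, with a median log2 fold change of -0.28. Over all genes tested 4.97% rose and 6.11% fell. Between WT CD4 SP and WT CD8 SP, 9 of the 18 were lower and 1 was higher in WT CD4 SP (10.3% and 7.72% of all genes tested). This list, too, was chosen with earlier results of these data known, so its counts are a description. Gzmk and Ifng were too low to be tested. Cst7, an inhibitor of granule proteases, had 13.1, 14.7 and 13.7 CPM in Thpok-RKF+ libraries, against 112, 101 and 102 CPM in WT CD8 SP libraries (log2 fold change -2.93 ± 0.16, edgeR adjusted p = 2.35e-08). The ranges of Cst7 were far apart. It was higher in Thpok-RKF+ than in Thpok-RKF- CD4+CD8+ cells by 0.72 ± 0.15 (edgeR adjusted p = 0.0344) and higher than in WT CD4 SP cells by 1.37 (edgeR adjusted p = 3.86e-05), both on the log2 scale.

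Prf1, the pore-forming protein perforin, moved the other way. It had 195, 299 and 286 CPM in Thpok-RKF+ libraries, against 113, 134 and 140 CPM in WT CD8 SP libraries (log2 fold change 1.01 ± 0.15, edgeR adjusted p = 0.000456). All Thpok-RKF+ libraries lay above all WT CD8 SP libraries, and WT CD4 SP libraries had 36.3, 31.7 and 30.2 CPM. Fasl, the ligand of the death receptor Fas, had 3.49, 3.56 and 3.32 CPM in Thpok-RKF+ libraries, against 0.0798, 0.0502 and 0 CPM in WT CD8 SP libraries. Its log2 fold change of 6.27 ± 1.14 (edgeR adjusted p = 0.00209) rests on very few counts in WT CD8 SP and was 2.09 by limma on log2(CPM + 1). Fasl had 7.63, 7.37 and 12.6 CPM in WT CD4 SP cells.

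Xcl1, a chemokine of activated CD8 T cells, had 2 counts in all in the Thpok-RKF+ libraries, against 186 in the WT CD8 SP libraries, and the ratio of WT CD8 SP over Thpok-RKF+ was 105 (95% counting interval 28.6 to 873). Its call was lost without Thpok-RKF+ library 3 or WT CD8 SP library 2 or 3. Eomes, a T-box factor of cytotoxic and memory cells, had 3.51, 3.87 and 4.57 CPM in Thpok-RKF+ libraries, against 11.1, 15.6 and 17.4 CPM in WT CD8 SP libraries (log2 fold change -1.88 ± 0.58, edgeR adjusted p = 0.0497). Ctsw, a cysteine protease of cytotoxic cells, had 829, 854 and 808 CPM in Thpok-RKF+ libraries, against 1221, 990 and 960 CPM in WT CD8 SP libraries (95% interval of the log2 fold change -0.78 to 0.09). Its ranges were apart, but the difference did not pass, and WT CD4 SP libraries had 360, 423 and 384 CPM. Granzyme genes were near the limit of measurement in these unstimulated thymocytes. Gzma had at most 1.12 CPM in Thpok-RKF+ libraries and 1.41 CPM in WT CD8 SP libraries, Gzmb at most 0.605 CPM in Thpok-RKF+ and 2.56 CPM in WT CD8 SP, and Gzmm at most 2.79 CPM in Thpok-RKF+ and 2.24 CPM in WT CD8 SP. None of these 3 passed (edgeR adjusted p between 0.447 and 0.865). The genes of granule traffic and protection, Unc13d, Lamp1 and Serpinb9, had intervals within 2-fold.

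Of 11 NK receptor genes tested, 1 fell and 10 did not pass, with a median of -0.90, and 7 more were too low to test. Over all genes tested 6.11% fell, so 1 of 11 is near the share of all genes. Klrd1, which encodes CD94, had 11.04, 7.86 and 8.72 CPM in Thpok-RKF+ libraries, against 56.7, 70.3 and 68.0 CPM in WT CD8 SP libraries (log2 fold change -2.82 ± 0.54, edgeR adjusted p = 0.00297). Cd160, a receptor of cytotoxic cells for HVEM, had 62.7, 81.7 and 73.9 CPM in Thpok-RKF+ libraries, against 70.5, 95.7 and 99.6 CPM in WT CD8 SP libraries (log2 fold change -0.28, 95% interval -0.93 to 0.36). The ranges overlapped for Cd160 and were apart for Klrd1. Cd160 was higher in Thpok-RKF+ than in Thpok-RKF- CD4+CD8+ cells, which had 14.7, 18.9 and 24.8 CPM (log2 fold change 1.90 ± 0.31, edgeR adjusted p = 0.0098), and WT CD4 SP cells had at most 2.61 CPM.

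Cd226, an activating receptor for nectin-family ligands, had 127, 157 and 148 CPM in Thpok-RKF+ libraries, against 154, 134 and 139 CPM in WT CD8 SP libraries and 42.9, 44.4 and 43.7 CPM in WT CD4 SP libraries. Crtam, a receptor that binds Cadm1, had 26.1, 47.6 and 50.2 CPM in Thpok-RKF+ libraries, against 29.1, 44.6 and 38.4 CPM in WT CD8 SP libraries. Both overlapped with WT CD8 SP, and the 95% intervals of the log2 fold change were -0.21 to 0.25 for Cd226 and -0.49 to 0.78 for Crtam. Klrk1, Klrb1c, Klra1, Klra3, Cd244a and Tyrobp had at most 3.47 CPM in any of the 6 libraries. Klra1 had no count in Thpok-RKF+ libraries, against 55 in all in the WT CD8 SP libraries, of which library 1 had none, and its difference did not pass (edgeR adjusted p = 0.062). Klra1 did pass as lower without WT CD8 SP library 1 (adjusted p = 0.0325), by DESeq2 (adjusted p = 0.0241) and with no low-count filter (adjusted p = 0.0071). Klrb1c, Klra3 and Cd244a also passed as lower under at least 1 alternative.

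Among 20 genes of the helper lineage, Thpok-RKF+ cells were higher in 14 and lower in 1 (4.97% and 6.11% of all genes tested), with a median log2 fold change of 1.91. The 14 include Cd4, which follows the sort gate, and Zbtb7b, whose counts may hold Thpok-RKF transcripts. Between WT CD4 SP and WT CD8 SP, 15 of the 20 were higher in WT CD4 SP (7.72% of all genes tested), with a median of 1.88. Against WT CD4 SP itself, 3 of these genes were higher and 5 were lower in Thpok-RKF+ cells (4.36% and 2.91% of all genes tested), with a median of -0.22. The list was drawn up with earlier results of these data known, so its direction is a description. The genes that rose besides Zbtb7b, Cd4, Gata3 and Tox were St8sia6, Ptgir, Tnfrsf4, Cd40lg, Adh1, Khdrbs3, Il2ra, Il6ra, Izumo1r and Cd5. The call for Cd5 was lost without any 1 library other than Thpok-RKF+ library 1, and that for Il6ra without WT CD8 SP library 2 or 3.

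St8sia6, a sialyltransferase, had 102, 109 and 124 CPM in Thpok-RKF+ libraries, against 0.718, 0.853 and 0.0233 CPM in WT CD8 SP libraries (log2 fold change 7.74 ± 0.52, edgeR adjusted p = 2.78e-07). Ptgir, the prostacyclin receptor, had 51.4, 51.4 and 65.9 CPM in Thpok-RKF+ libraries, against 0.745, 1.71 and 0.863 CPM in WT CD8 SP libraries (log2 fold change 5.67 ± 0.33, edgeR adjusted p = 7.77e-08). Both were clear of WT CD8 SP and did not differ by the test from WT CD4 SP, where the levels were 177, 199 and 177 CPM for St8sia6 and 64.3, 72.4 and 65.5 CPM for Ptgir. Tnfrsf4, which encodes the costimulatory receptor OX40, had 61.2, 86.0 and 74.95 CPM in Thpok-RKF+ libraries, against 3.38, 2.71 and 2.24 CPM in WT CD8 SP libraries (log2 fold change 4.74 ± 0.38, edgeR adjusted p = 1.78e-06). Cd40lg, the ligand through which helper cells activate B cells, had 42.4, 67.2 and 61.0 CPM in Thpok-RKF+ libraries, against 2.10, 3.24 and 4.69 CPM in WT CD8 SP libraries (log2 fold change 4.08 ± 0.30, edgeR adjusted p = 6.94e-07). These last 2 genes were lower in Thpok-RKF+ than in WT CD4 SP cells, by log2 fold changes of -1.66 for Tnfrsf4 and -1.06 for Cd40lg (edgeR adjusted p = 0.00493 and 0.0225).

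St8sia6, Ptgir, Tnfrsf4 and Cd40lg did not differ by the test between Thpok-RKF+ and Thpok-RKF- CD4+CD8+ cells, with log2 fold changes of -0.02 ± 0.36, 0.34 ± 0.26, 0.25 ± 0.32 and 0.26 ± 0.26. Of the whole helper list, only Zbtb7b and Cd4 passed in that comparison, where 0.586% of all genes tested were higher. The comparison called 159 genes in all, and 1677 without Thpok-RKF+ library 1. The helper genes among those 1677 were not counted. Cd4 was higher in Thpok-RKF+ than in Thpok-RKF- CD4+CD8+ cells by 1.97 ± 0.42 on the log2 scale (edgeR adjusted p = 0.0393). Icos, a costimulatory receptor, was the 1 helper gene that fell, with 80.3, 104 and 95.5 CPM in Thpok-RKF+ libraries, against 129, 121 and 129 CPM in WT CD8 SP libraries (log2 fold change -0.44 ± 0.13, edgeR adjusted p = 0.0435). Its call was lost without the libraries numbered 1 (adjusted p = 0.0685) and without any 1 library other than Thpok-RKF+ library 2. Ccr7, a homing receptor of mature thymocytes, had 1181, 1475 and 1337 CPM in Thpok-RKF+ libraries, against 1136, 1379 and 1434 CPM in WT CD8 SP libraries (95% interval of the log2 fold change -0.22 to 0.26).

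**Figure D4:**
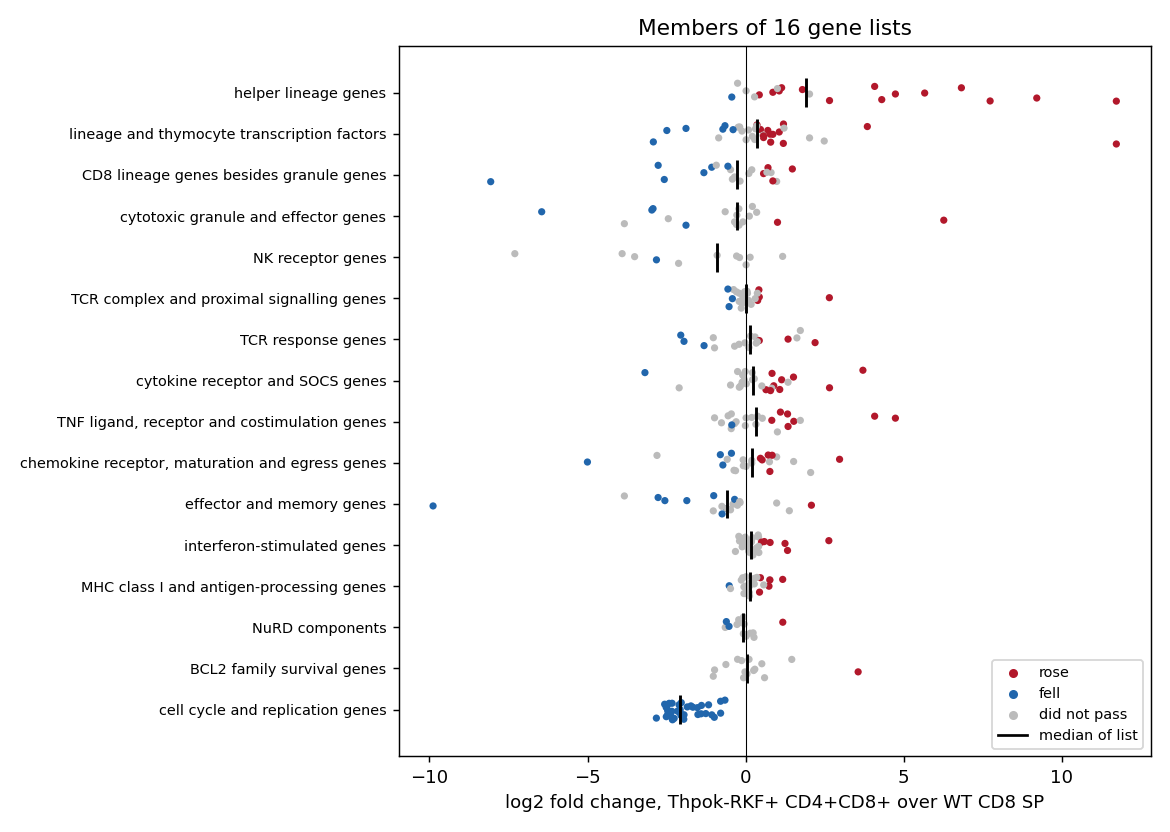
Log2 fold change of Thpok-RKF+ CD4+CD8+ over WT CD8 SP for the tested members of 16 gene lists. Red members rose, blue members fell, grey members did not pass and black lines are list medians. Of 20 helper-lineage genes 14 rose (4.97% of all genes tested), and all 37 cell cycle genes fell (6.11% of all genes tested).

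Outside the lists of lineage genes, the largest rises among genes of fair expression were those of Pdlim4, Il18r1, Hdac1-ps, Lmna, Kcnip2 and Tnfrsf25, with log2 fold changes from 3.40 to 3.84. Il18r1, a chain of the interleukin 18 receptor, had 44.8, 49.3 and 39.5 CPM in Thpok-RKF+ libraries, against 3.48, 4.34 and 2.38 CPM in WT CD8 SP libraries (log2 fold change 3.71 ± 0.34, edgeR adjusted p = 5.98e-06). It was also higher than in WT CD4 SP cells, which had 5.92, 9.77 and 11.2 CPM (log2 fold change 2.31, edgeR adjusted p = 0.000286), and did not differ by the test from Thpok-RKF- CD4+CD8+ cells (0.84 ± 0.30). Lmna, the gene of nuclear lamins A and C, had 45.7, 89.7 and 77.3 CPM in Thpok-RKF+ libraries, against 4.76, 6.92 and 7.18 CPM in WT CD8 SP libraries (log2 fold change 3.49 ± 0.34, edgeR adjusted p = 1.01e-05). Neither gene overlapped between Thpok-RKF+ and WT CD8 SP. Hdac1-ps is a pseudogene whose reads cannot be told apart with certainty from those of Hdac1. Its raw counts were 1521, 2169 and 1824 in Thpok-RKF+ libraries, against 100, 129 and 147 in WT CD8 SP libraries. They were also high in Thpok-RKF- CD4+CD8+ libraries (1851, 1776 and 1791) and low in WT CD4 SP libraries (147, 178 and 158).

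Large falls were in Plac8, Cxcr6, Sytl3, Myo1f, Paqr4, Lcn4, Snx9, Cd7, Gprin3, Tbc1d31 and Jaml, with log2 fold changes from -7.49 to -3.20. Plac8 had 0.465, 0.0648 and 0.639 CPM in Thpok-RKF+ libraries, against 52.4, 78.8 and 78.3 CPM in WT CD8 SP libraries (log2 fold change -7.49 ± 0.81, edgeR adjusted p = 2.89e-05). Cxcr6, a chemokine receptor of innate-like and tissue-resident T cells, had 6.77, 9.51 and 9.19 CPM in Thpok-RKF+ libraries, against 194, 300 and 322 CPM in WT CD8 SP libraries (log2 fold change -5.00 ± 0.43, edgeR adjusted p = 2.94e-06). Cd7, a surface protein of T and NK cells, had 22.9, 31.6 and 28.7 CPM in Thpok-RKF+ libraries, against 246, 299 and 286 CPM in WT CD8 SP libraries (log2 fold change -3.32 ± 0.16, edgeR adjusted p = 1.25e-08). All 3 were separated from WT CD8 SP.

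WT CD4 SP cells lay between for Plac8 (1.03, 4.08 and 4.92 CPM) and Cd7 (82.9, 85.8 and 105 CPM), and Thpok-RKF+ cells were lower than WT CD4 SP in both (log2 fold changes -3.10 and -1.72, edgeR adjusted p = 0.0167 and 3.1e-06). Cd7 was lower in Thpok-RKF+ than in Thpok-RKF- CD4+CD8+ cells too, by a log2 fold change of -0.88 ± 0.15 (edgeR adjusted p = 0.011). Myo1f, an unconventional myosin, stood between both WT populations. Myo1f had 9.58, 5.59 and 5.33 CPM in Thpok-RKF+ libraries, against 115, 120 and 116 CPM in WT CD8 SP libraries and 2.97, 2.81 and 3.93 CPM in WT CD4 SP libraries. It was lower than in WT CD8 SP and higher than in WT CD4 SP by the edgeR test.

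Of 25 genes of the T cell receptor complex and its proximal signalling, 4 rose and 3 fell (4.97% and 6.11% of all genes tested), with a median of 0.01. An interval within 2-fold held for 24 of them, against 92.1% of all genes with a mean log2(CPM + 1) over 7 and 87.6% of those from 5 to 7. The exception was Cd247. Cd247, the zeta chain that carries most of the signalling motifs of the complex, had 2376, 2773 and 2700 CPM in Thpok-RKF+ libraries, against 401, 420 and 430 CPM in WT CD8 SP libraries (log2 fold change 2.65 ± 0.10, edgeR adjusted p = 1.31e-09). The groups were wide apart. Thpok-RKF- CD4+CD8+ libraries had 428, 460 and 422 CPM, so Thpok-RKF+ was higher by 2.58 ± 0.10 on the log2 scale within the same gate and host (edgeR adjusted p = 1.8e-09). WT CD4 SP libraries had 537, 463 and 559 CPM.

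Cd3e, a core chain of the receptor complex, had 805, 774 and 777 CPM in Thpok-RKF+ libraries, against 736, 841 and 754 CPM in WT CD8 SP libraries (95% interval of the log2 fold change -0.18 to 0.20). Zap70, the kinase that binds the zeta chain, had 269, 361 and 354 CPM in Thpok-RKF+ libraries, against 278, 359 and 352 CPM in WT CD8 SP libraries (95% interval -0.31 to 0.30). Both overlapped. Ptprc, the phosphatase CD45, had 2391, 2410 and 2557 CPM in Thpok-RKF+ libraries, against 2704, 2825 and 2941 CPM in WT CD8 SP libraries (95% interval -0.38 to -0.02, edgeR adjusted p = 0.159).

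Of 18 genes that respond to T cell receptor signals, 3 rose and 3 fell (4.97% and 6.11% of all genes tested). With the libraries numbered 1 left out, 6 were higher and 4 lower. Nr4a1, an early response gene, had 198, 425 and 378 CPM in Thpok-RKF+ libraries, against 63.9, 73.0 and 81.2 CPM in WT CD8 SP libraries (log2 fold change 2.20 ± 0.30, edgeR adjusted p = 0.000236). It was also higher than in Thpok-RKF- CD4+CD8+ cells (log2 fold change 1.33 ± 0.29, edgeR adjusted p = 0.0476) and did not differ by the test from WT CD4 SP cells (0.11). Ikzf2, which encodes Helios, had 10.9, 5.62 and 5.07 CPM in Thpok-RKF+ libraries, against 23.6, 35.5 and 30.4 CPM in WT CD8 SP libraries (log2 fold change -2.05 ± 0.41, edgeR adjusted p = 0.00388). Neither gene overlapped, and Thpok-RKF+ library 1 was the lowest of its group for Nr4a1 and the highest for Ikzf2. Immediate early and dissociation stress genes, which respond to handling, did not move one way: 3 of 15 rose and 2 fell (4.97% and 6.11% of all genes tested).

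Of 26 cytokine receptor and SOCS genes, 9 rose and 1 fell, and of 23 TNF ligand, receptor and costimulation genes, 7 rose and 1 fell. Both shares of rises lay above the 4.97% of all genes tested, and 6.11% of all genes fell. Il2ra, the alpha chain of the interleukin 2 receptor, had 10.01, 6.00 and 7.82 CPM in Thpok-RKF+ libraries, against 0.399, 1.63 and 1.73 CPM in WT CD8 SP libraries (log2 fold change 2.66 ± 0.43, edgeR adjusted p = 0.000952). Socs1, a brake on cytokine signalling, had 144, 169 and 153 CPM in Thpok-RKF+ libraries, against 75.5, 73.1 and 71.7 CPM in WT CD8 SP libraries (log2 fold change 1.08 ± 0.11, edgeR adjusted p = 1.12e-05). Neither overlapped, and Socs1 was also higher than in Thpok-RKF- CD4+CD8+ cells (0.60 ± 0.11, edgeR adjusted p = 0.0142) and WT CD4 SP cells (0.85, edgeR adjusted p = 0.00012). Among the costimulation genes, Lta and Tnfsf11, cytokines of lymphoid tissue organisation, rose by 1.33 ± 0.17 and 1.53 ± 0.21 on the log2 scale (edgeR adjusted p = 0.000149 and 0.000233).

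Of 23 chemokine receptor, maturation and egress genes, 6 rose and 4 fell (4.97% and 6.11% of all genes tested). Ccr8 had 44.4, 34.4 and 30.2 CPM in Thpok-RKF+ libraries, against 2.05, 5.64 and 6.16 CPM in WT CD8 SP libraries (log2 fold change 2.97 ± 0.41, edgeR adjusted p = 0.00025). Klf2, a factor that drives thymic egress, had 416, 332 and 328 CPM in Thpok-RKF+ libraries, against 574, 634 and 563 CPM in WT CD8 SP libraries (log2 fold change -0.72 ± 0.12, edgeR adjusted p = 0.000869). S1pr1, the egress receptor that Klf2 controls, had 956, 1216 and 1268 CPM in Thpok-RKF+ libraries, against 686, 852 and 853 CPM in WT CD8 SP libraries, and was higher (log2 fold change 0.52 ± 0.13, edgeR adjusted p = 0.0144). None of the 3 overlapped between the groups.

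Of 20 effector and memory genes tested, 8 fell and 1 rose (6.11% and 4.97% of all genes tested), with a median of -0.59. Lgals1, which encodes galectin 1, had 33.1, 37.5 and 35.3 CPM in Thpok-RKF+ libraries, against 218, 207 and 196 CPM in WT CD8 SP libraries (log2 fold change -2.55 ± 0.17, edgeR adjusted p = 2.88e-07). Anxa2, a calcium-dependent membrane protein, had 22.1, 30.9 and 22.2 CPM in Thpok-RKF+ libraries, against 86.3, 89.7 and 96.6 CPM in WT CD8 SP libraries (log2 fold change -1.86 ± 0.20, edgeR adjusted p = 2.19e-05). Vim and Crip1 fell by log2 fold changes of -0.74 ± 0.10 and -1.01 ± 0.15 (edgeR adjusted p = 0.000166 and 0.000571). These 4 genes were separated between the groups. S100a6 had no count in Thpok-RKF+ libraries, against 323 in all in WT CD8 SP libraries, which is at least 121-fold lower (floor of 3 counts over the group).

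Of 30 interferon-stimulated genes, 26 had an interval within 2-fold, and the median was 0.18. By the edgeR test 6 rose and 0 fell (4.97% and 6.11% of all genes tested). Ifi44 had 23.3, 19.0 and 14.5 CPM in Thpok-RKF+ libraries, against 1.54, 3.61 and 3.96 CPM in WT CD8 SP libraries (log2 fold change 2.63 ± 0.33, edgeR adjusted p = 0.000109). Usp18 and Iigp1 rose by 1.25 ± 0.21 and 1.33 ± 0.21 on the log2 scale (edgeR adjusted p = 0.00104 and 0.00086). Between WT CD4 SP and WT CD8 SP, 19 of the 30 were higher in WT CD4 SP (7.72% of all genes tested). Of 24 MHC class I and antigen-processing genes, 20 had an interval within 2-fold, 5 rose and 1 fell (4.97% and 6.11% of all genes tested). Over all genes, such an interval held for 64.3% of those with a mean log2(CPM + 1) from 3 to 5. It held for 87.6% of those from 5 to 7 and 92.1% of those over 7. Neither list's count within 2-fold is therefore read as a special likeness. H2-K1, a classical class I heavy chain, had 4370, 5340 and 4965 CPM in Thpok-RKF+ libraries, against 3682, 3522 and 3600 CPM in WT CD8 SP libraries (log2 fold change 0.44 ± 0.08, edgeR adjusted p = 0.00207). The donor cells carry B2m whatever their host, and B2m had 1926, 1923 and 1905 CPM in Thpok-RKF+ libraries, against 1676, 2212 and 2076 CPM in WT CD8 SP libraries, which overlap. Tap1, a chain of the peptide transporter, was within -0.19 and 0.16 on the log2 scale (95% interval).

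Of 37 cell cycle and replication genes, all 37 passed and were lower in Thpok-RKF+ cells (6.11% of all genes tested), with a median log2 fold change of -2.07. Their summed level was 1540 to 1860 CPM in Thpok-RKF+ libraries, against 3670 to 5550 CPM in WT CD8 SP libraries. All 37 were likewise lower in WT CD4 SP than in WT CD8 SP cells (10.3% of all genes tested), with a median of -2.06. WT CD4 SP libraries summed to 1370 to 1780 CPM. Against WT CD4 SP, 2 of the 37 were higher and 1 was lower in Thpok-RKF+ cells (4.36% and 2.91% of all genes tested), with a median of 0.01. In these sorted pools a smaller share of dividing cells and less of these RNAs per cell cannot be told apart, and this holds for every gene described here.

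The promoters of 2 of these genes, 1 from mitosis and 1 from replication, are shown because the list moved together. They are RefSeq sequences of build GRCm38.p6 from 250 bases before to 50 bases after the start. Capitals mark the CHR element TTTGAA and the CCAAT box in Top2a, and the E2F letters TTTGGCGC and the CCAAT box in Mcm6, on either strand.
Top2a, chr11:99024140-99024439, minus strand: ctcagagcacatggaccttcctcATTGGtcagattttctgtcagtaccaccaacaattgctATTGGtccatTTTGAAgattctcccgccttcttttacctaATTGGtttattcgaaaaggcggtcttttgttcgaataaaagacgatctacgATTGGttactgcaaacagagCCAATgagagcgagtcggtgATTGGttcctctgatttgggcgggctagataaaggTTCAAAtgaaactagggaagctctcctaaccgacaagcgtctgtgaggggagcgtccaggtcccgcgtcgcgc
Mcm6, chr1:128359656-128359955, minus strand: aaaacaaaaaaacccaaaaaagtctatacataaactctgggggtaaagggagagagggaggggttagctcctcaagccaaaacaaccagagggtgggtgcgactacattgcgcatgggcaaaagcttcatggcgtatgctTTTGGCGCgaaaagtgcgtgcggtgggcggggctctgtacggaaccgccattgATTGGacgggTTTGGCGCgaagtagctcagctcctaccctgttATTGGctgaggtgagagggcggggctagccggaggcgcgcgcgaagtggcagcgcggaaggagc
Of 31 promoters listed for 29 of the 37 genes, 74.2% held CCAAT, against 37.4% of all 32851 promoters. TTTGAA was in 32.3% of the list and 17.9% of all promoters, TTTGGCGC in 12.9% and 0.514%, and TTTCCCGC in 16.1% and 1.07%. These are matches of letters on either strand, without regard to position.

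Top2a, the topoisomerase that untangles chromosomes before mitosis, had 44.2, 31.9 and 43.6 CPM in Thpok-RKF+ libraries, against 150, 242 and 269 CPM in WT CD8 SP libraries (log2 fold change -2.46 ± 0.27, edgeR adjusted p = 2.68e-05). Mcm6, a subunit of the replicative helicase, had 208, 274 and 232 CPM in Thpok-RKF+ libraries, against 521, 664 and 707 CPM in WT CD8 SP libraries (log2 fold change -1.41 ± 0.14, edgeR adjusted p = 9.51e-06). Cdca7, a chromatin factor of S phase, had 20.8, 21.7 and 29.9 CPM in Thpok-RKF+ libraries, against 120, 155 and 151 CPM in WT CD8 SP libraries (log2 fold change -2.56 ± 0.23, edgeR adjusted p = 4.02e-06). Mcm3, of the same helicase, fell by 1.52 on the log2 scale (edgeR adjusted p = 2.65e-05). WT CD8 SP library 1 was the lowest of its group for each of these, and still above every Thpok-RKF+ library. Top2a was also lower in Thpok-RKF+ than in Thpok-RKF- CD4+CD8+ cells, which had 105, 106 and 96.9 CPM (log2 fold change -1.37 ± 0.26, edgeR adjusted p = 0.019). It was 1 of 2 genes of the list that passed in that comparison, with Mki67 (-1.45 ± 0.32, edgeR adjusted p = 0.0492). Over all genes tested 0.375% were lower there.

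**Figure D5:**
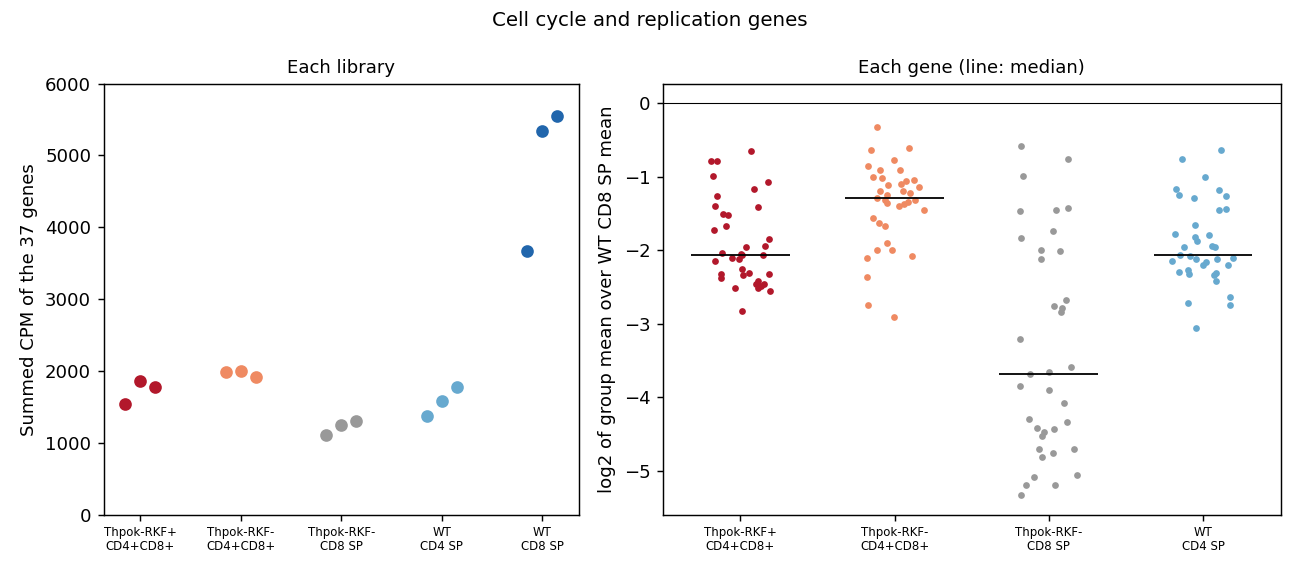
Left, summed CPM of 37 cell cycle and replication genes in each library of 5 groups, with Thpok-RKF+ CD4+CD8+ first and WT CD8 SP last. Right, log2 of each group's mean level over the WT CD8 SP mean for every gene, with the median as a line; the Thpok-RKF+ libraries sum to 1540 to 1860 CPM and the WT CD8 SP libraries to 3670 to 5550 CPM.

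Of 14 components of the NuRD corepressor complex, which deacetylates and remodels chromatin, 12 had an interval within 2-fold, a share near that of all well expressed genes. Chd3, a helicase of the complex, rose by 1.18 ± 0.20 and Mta3 and Gatad2a fell by log2 fold changes of -0.61 ± 0.09 and -0.52 ± 0.09 (edgeR adjusted p = 0.00121, 0.000663 and 0.00125). Of 15 BCL2 family genes tested, 6 had an interval within 2-fold (46.8% of all genes tested). Bik alone passed, as higher (4.97% of all genes tested). Bik had 3.19, 4.23 and 4.003 CPM in Thpok-RKF+ libraries, against 0.399, 0.401 and 0.163 CPM in WT CD8 SP libraries (log2 fold change 3.56 ± 0.79, edgeR adjusted p = 0.00817). Bcl2, the survival factor of mature T cells, had 293, 172 and 171 CPM in Thpok-RKF+ libraries, against 381, 298 and 301 CPM in WT CD8 SP libraries. The ranges of Bcl2 were apart by less than the spread among Thpok-RKF+ libraries. It did not pass (log2 fold change -0.62 ± 0.25, edgeR adjusted p = 0.136), but did without the libraries numbered 1 (log2 fold change -0.77, adjusted p = 0.00276).

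Markers of other cells that a gate could hold were measured beside these groups. Of 14 regulatory T cell markers tested, 7 rose and 2 fell (4.97% and 6.11% of all genes tested). The list summed to 880 to 1120 CPM in Thpok-RKF+ libraries, against 1190 to 1270 CPM in WT CD8 SP libraries. Itgae is on this list and made up most of the WT CD8 SP sum. Without Itgae the sums were 705 to 977 CPM in Thpok-RKF+ libraries, against 302 to 404 CPM in WT CD8 SP libraries. Foxp3, the defining factor of regulatory T cells, had 8.57, 8.88 and 8.95 CPM in Thpok-RKF+ libraries, against 1.67, 2.69 and 1.42 CPM in WT CD8 SP libraries and 31.5, 53.7 and 39.3 CPM in WT CD4 SP libraries. It was above WT CD8 SP (log2 fold change 2.19 ± 0.35, edgeR adjusted p = 0.00075) and below WT CD4 SP (-2.24, edgeR adjusted p = 0.000603). Il2ra, Tnfrsf4 and Izumo1r are on this list and on the helper list, and the part of such cells in those rises was not tested.

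Among 14 markers of NKT and innate-like cells, 3 were higher and 2 lower by the test (4.97% and 6.11% of all genes tested). They summed to 931 to 979 CPM in Thpok-RKF+ libraries, against 1190 to 1310 CPM in WT CD8 SP libraries. Zbtb16, the factor PLZF that defines NKT cells, had at most 0.296 CPM in Thpok-RKF+ libraries and 0.276 CPM in WT CD8 SP libraries. Of 8 gamma-delta T cell markers tested, Trgc1, Trgc2 and Trgc4 were lower (6.11% of all genes tested). They had no more than 1.02 CPM in Thpok-RKF+ libraries and 5.92 CPM in WT CD8 SP libraries. The calls for Trgc1 and Trgc4 were lost when single libraries were left out. Blk and Il23r had no count in Thpok-RKF+ libraries and few in WT CD8 SP libraries (11 of Blk in library 3, 3 of Il23r in library 2). Trdc went the other way but did not pass (log2 fold change 0.67, edgeR adjusted p = 0.0634). It passed as higher by DESeq2 (adjusted p = 0.0169) and by edgeR without Thpok-RKF+ library 1 (adjusted p = 0.0408). The sums of this list were 18.8 to 23.7 CPM in Thpok-RKF+ libraries, against 19.2 to 27.4 CPM in WT CD8 SP libraries. Of 16 markers of immature double-positive thymocytes, 4 rose and 2 fell (4.97% and 6.11% of all genes tested). They summed to 1100 to 1260 CPM in Thpok-RKF+ libraries, against 810 to 890 CPM in WT CD8 SP libraries. Cd81, a tetraspanin on this list, had 173, 325 and 293 CPM in Thpok-RKF+ libraries, against 17.5, 27.1 and 34.6 CPM in WT CD8 SP libraries (log2 fold change 3.32 ± 0.26, edgeR adjusted p = 1.29e-06). The part of any of these cells in the lineage results was not tested.

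Of 4 B cell markers tested, 2 fell and 0 rose (6.11% and 4.97% of all genes tested). Cd79b and Ighd fell by log2 fold changes of -2.28 ± 0.41 and -3.21 ± 0.67 (edgeR adjusted p = 0.00183 and 0.00588). Ighm was lower but did not pass (-0.74, edgeR adjusted p = 0.0838). Cd79a went the other way and did not pass (log2 fold change 1.12, edgeR adjusted p = 0.0712). Cd79a passed as higher by DESeq2 (adjusted p = 0.0255), by limma (0.0493) and with only the compared groups fitted (0.0445). Ighd had 4.80, 6.67 and 3.25 CPM in Thpok-RKF+ libraries, against 33.4, 50.5 and 52.1 CPM in WT CD8 SP libraries, while Ms4a1 had no count in either group. The B cell list summed to 363 to 760 CPM in Thpok-RKF+ libraries, against 843 to 1190 CPM in WT CD8 SP libraries, most of it Ighm. Myeloid markers summed to 59.0 to 92.9 CPM in Thpok-RKF+ libraries, against 14.6 to 29.1 CPM in WT CD8 SP libraries. Cd74 had 30.6, 57.6 and 53.5 CPM in Thpok-RKF+ libraries, against 7.92, 20.1 and 23.3 CPM in WT CD8 SP libraries. It made up most of the sum in every library but Thpok-RKF+ library 1. Of 12 tested, 1 rose (4.97% of all genes tested), Cd74 (log2 fold change 1.46 ± 0.31, edgeR adjusted p = 0.00613, and 0.0564 with only the compared groups fitted). Lyz2 reached 24.5 CPM in Thpok-RKF+ library 1 and had 0.194 and 0.876 CPM in the other Thpok-RKF+ libraries, against at most 0.373 CPM in WT CD8 SP libraries. C1qb followed it, with 10.6 CPM in Thpok-RKF+ library 1 and 0.238 and 0 CPM in the others, and no count in WT CD8 SP libraries. Of 6 stromal and epithelial markers tested, 2 rose and 1 fell (4.97% and 6.11% of all genes tested). They summed to 220 to 269 CPM in Thpok-RKF+ libraries, against 163 to 187 CPM in WT CD8 SP libraries, most of it Pecam1. None of 4 erythroid markers passed the edgeR test, with sums of 0.0864 to 1.78 CPM in Thpok-RKF+ libraries, against 0.0466 to 0.276 CPM in WT CD8 SP libraries.

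Without the libraries numbered 1, the counts of genes that rose and fell were 15 and 0 of 20 for the helper list, 6 and 5 of 20 for the CD8 lineage list, 2 and 4 of 18 for the cytotoxic list, and 0 and 37 of 37 for the cell cycle list. Over all genes, 1218 rose and 1168 fell in that setting. The factors list had 12 and 6 of 33, the receptor signalling list 5 and 4 of 25, cytokine receptors 11 and 2 of 26, costimulation genes 9 and 2 of 23, and egress genes 7 and 4 of 23. Effector and memory genes had 1 and 10 of 20, interferon-stimulated genes 8 and 0 of 30 by the edgeR test, MHC class I genes 7 and 1 of 24, NuRD components 1 and 3 of 14, BCL2 family genes 1 and 1 of 15, and stress genes 5 and 3 of 14. Of the markers of other cells, regulatory T cell markers had 10 and 2 of 14, NKT and innate-like markers 3 and 3 of 14, gamma-delta markers 0 and 2 of 8, immature thymocyte markers 3 and 2 of 15, B cell markers 0 and 3 of 4, myeloid markers 1 and 1 of 10, stromal markers 1 and 0 of 7, and erythroid markers 0 and 0 of 5 by the edgeR test. The medians of the NKT list (0.04, then -0.60) and of the immature thymocyte list (1.01, then -0.04) turned negative. Genes that gained a call included Ctla4 (log2 fold change 1.07, adjusted p = 0.00257), Ighm (-0.59, adjusted p = 0.031) and Mta1 (-0.84, adjusted p = 0.0296), which with all libraries had adjusted p of 0.149 for Ctla4, 0.0838 for Ighm and 0.0538 for Mta1. The NK receptor list then had 14 genes tested, of which 0 rose and 1 fell by the edgeR test, and its median was -2.65, since genes of very low count entered it.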

How the data were processed

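RNA was sequenced from sorted mouse thymocytes, 3 libraries in each of 5 groups; groups were taken from the titles. The labels' protocols give RNeasy Plus Micro extraction, SMARTer Ultra Low Input libraries and paired NovaSeq reads. Without roles, the build mm39 and the tools STAR, HTSeq, Trimmomatic, DESeq2 and bcl2fastq 2.17 are listed in the submitters' processing notes. The sources used here do not give the annotation or the strand setting. The authors deposited raw counts per gene and CPM. Scaled by each library's gene total, the deposited CPM were whole reads in 100% of values (tolerance 0.01) and equal to the deposited counts, so the count test on those reads is the test used here. Each deposited table held 3 columns that match no label and were not used. The 5 summary lines, which name no gene, entered neither the tests nor the library sizes. Replicates differed beyond sampling noise in every pair: chi-square over its degrees of freedom was 11.1 to 190 in the 2 groups compared, over genes with at least 10 counts.

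Changes were tested with edgeR 4.0.16 in R 4.3.3 (quasi-likelihood F test, TMM, all 15 libraries in 1 model of group means, minimum count 10, minimum total 15), with Benjamini-Hochberg adjustment over all genes tested and a threshold of 0.05. The standard error is the absolute log2 fold change over the square root of F. CPM levels use library sizes scaled by TMM. On simulated counts for 15943 genes the test recovered 86% of genes changed 4-fold and 46% of those changed 2-fold, called 6 unchanged genes, and 94.8% of intervals held the true value. The changed genes were drawn from those with a mean CPM above 1. All groups otherwise shared their means, and no library was made to stand apart. The shares recovered hold for that setting and not for genes of low level. Where 1 group had no count, the bound on the fold used 3 counts over that group as its floor. Counting intervals and floors cover counting error only.

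Named genes are Zbtb7b, Runx3, Cd4, Cd8a, Cd8b1, Gata3, Nkg7 and Itgae, the 12 largest rises and 12 largest falls that passed, averaged 3 or more on the log2(CPM + 1) scale and did not overlap (Xist, Y-linked genes, predicted models and receptor segments left out), the 4 smallest adjusted p of each of 25 lists, members of the cytotoxic, NK receptor, CD8 lineage and helper lists, and the 6 list members with the narrowest intervals within 2-fold. The members, lists and tests were chosen with earlier results of these data known. Outside the rule, Id3, Cbfb, Zfp683, Nfatc1, Cd3e, Zap70, S1pr1, S100a6, B2m, Foxp3, Zbtb16, Blk, Il23r, Ms4a1 and Mki67 were chosen once their values had been seen. The alternatives were other size factors, no low-count filter, fits of the compared groups alone, a replicate block, DESeq2 1.42.0, limma 3.58.1 on log2(CPM + 1), a required 2-fold change, another pseudocount, and libraries left out. List counts without the libraries numbered 1, the regulatory T cell sum without Itgae, bounds for genes with no count and the promoter letters were added after seeing the data. Promoters came from RefSeq (GRCm38.p6), a build other than that of the files. Symbols with no match in the files were Mazr, Qa2, Folr4, Tcrg-C1, Tcrg-C2 and Cd163l1. Some genes that the rule names are not reported here.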

Additional observations from a re-analysis of the deposited data

How the results depend on the processing

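For Thpok-RKF+ CD4+CD8+ against WT CD8 SP, the 1835 genes called became 311 with a required 2-fold change (155 higher, 156 lower) and 1093 to 2205 with 1 library left out. The 823 higher became 521 to 1111 and the 1012 lower became 571 to 1094. Without all libraries numbered 1, 2386 were called (1218 higher, 1168 lower). Other settings gave 1393 to 2546, and the share called higher stayed between 43.3% and 51%. Genes held within 2-fold numbered 7169 to 8023, against 7747, under the edgeR settings with an interval; it was not computed by DESeq2, limma or with the required 2-fold change. The distance between libraries (0.428) became 0.244 with no low-count filter and 0.707 with log2(CPM + 0.1).

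In the WT CD4 SP comparison with WT CD8 SP, 2981 became 410 with a required 2-fold change, 3003 without the libraries numbered 1 and 1908 to 2623 with 1 library left out. For Thpok-RKF+ against WT CD4 SP, 1202 became 581 with the compared groups alone, 1946 by DESeq2 and 231 with a required 2-fold change (832 to 1322 with 1 library left out). For Thpok-RKF+ against Thpok-RKF- CD4+CD8+, 159 became 428 with no low-count filter, 52 with the compared groups alone, 350 with a term for libraries numbered 1, 676 by DESeq2, 287 by limma, 13 with a required 2-fold change, 1753 without the libraries numbered 1 and 50 to 1677 with 1 library left out. The cause of these shifts was not tested.

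With the replicate number as a block, 2279 genes were called for Thpok-RKF+ against WT CD8 SP, and 1784 of them were among the 1835. Same-numbered libraries deviated together by correlations of 0.166, 0.0375 and 0.0453. The highest correlation with another number was -0.064 for library 1, 0.09 for library 2 and 0.0352 for library 3. Libraries numbered 1 also correlated most with their own number in each of the other comparisons. Whether the numbers pair the libraries cannot be told from these values.

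Over 158 named genes, 2361 alternative values gave 141 lost calls, 57 gained calls and 0 reversed directions. Calls lost with single libraries left out, besides those given above, were those of Cdh5, Dusp1, Ets1, Hsp90aa1, Myc, Ptpn22 and Slamf6; that of Pecam1 was lost without the libraries numbered 1. The fold of Gprin3 (-3.24) became -4.29 without Thpok-RKF+ library 1, that of Xcl1 (-6.45) became -9.07 without Thpok-RKF+ library 2, those of Kcnip2 (3.40) and Fasl (6.27) became 4.03 and 7.02 without WT CD8 SP library 1, and without WT CD8 SP library 2 that of Khdrbs3 (6.83) became 8.05 and that of Adh1 (4.31) became 5.24, all on the log2 scale. By limma on log2(CPM + 1), which shrinks low genes, Zbtb7b was 9.34, St8sia6 6.23 and Plac8 -5.64. With genes that had no count in 1 group set to their bound, the median of the gamma-delta list changed from -1.54 to -1.28 and that of the erythroid list from 3.04 to 2.29.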
